A study of Mus musculus with 9 samples.

Results

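Open chromatin was compared between 2 stages of the developing mouse cochlea, E12 and E14.5, in prosensory cells sorted for high Sox2-EGFP. The comparison rests on 4 of the 9 ATAC-seq peak lists of the series, replicates 1 and 2 of Sox2-EGFPhigh+ cochlear duct cells at E12 and replicates 1 and 2 at E14.5. The remaining 5 lists, from Sox2-EGFPhigh+ cells of stage E16 (2) and Sox2-EGFP- cells of both later stages (3), took no part in the choice of stage calls and served only as a later reading of them. All cells came from embryos of the reporter strain B6;129S-Sox2tm2Hoch/J, in which EGFP follows Sox2, and no group was treated. The cochlear ducts of 1 litter were pooled for each replicate, so a replicate is a litter and the spread between replicates includes dissection, sort and library. In ATAC-seq, a transposase cuts accessible DNA and tags the cut ends for sequencing, and a peak is a place where cuts pile up over the local background.

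Sox2 is an HMG-box transcription factor that marks the prosensory domain, the floor of the cochlear duct from which hair cells and supporting cells arise. Between these stages the prosensory cells leave the cell cycle, beginning at the apex, and the Sox2-positive field narrows from most of the floor of the duct toward the future organ of Corti. Regulatory elements far from promoters tend to change their accessibility with cell state more than promoters do. In the study, motifs of the Sox, Gata, Pax and Tead families were enriched in sets of open regions of these cells. Sox2 is also made by glia of the spiral ganglion and, at a low level, by some nonsensory duct cells. Per the study's methods, nerve tissue was dissected off to avoid such glia, and the gate left out cells of low EGFP. Sox2-EGFPhigh+ cells still cover several prosensory fates. A change in the mix of sorted cells and a change of accessibility within a cell cannot be told apart in these bulk samples.

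The E12 lists were much shorter than the E14.5 lists. E12 replicates 1 and 2 held 13817 and 7577 peaks, and E14.5 replicates 1 and 2 held 66332 and 22962. In the sample table of the study, both E12 libraries have fewer reads than either E14.5 library, E14.5 replicate 1 has by far the highest share of reads in peaks, and the 4 libraries share a sequencing batch. Depth and stage can therefore not be told apart from the presence of a peak alone. Stages were compared by rank in lists of equal length. Merging peaks of the 4 lists over gaps of up to 100 bp gave 65894 regions. Of these, 14650 touched a window around a protein-coding start site, 1000 bp on its 5′ side and 100 bp on its 3′ side (promoter regions), and 51244 did not (distal regions). Each sample ranked the regions of a class by the −log10 p of its peak, and every list was cut to the length of the shortest, 2065 distal and 5149 promoter regions. A region was called E12-only or E14.5-only when it was in the lists of both samples of that stage and of neither sample of the other. The name refers to these lists and not to an absence of accessibility.

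The distal list of E12 replicate 2 was used whole, while the other lists were the upper 46.0% of the distal regions of E12 replicate 1, 4.05% of those of E14.5 replicate 1 and 20.7% of those of E14.5 replicate 2. The lowest −log10 p inside the distal lists was 8.38 for E12 replicate 1, 4.05 for E12 replicate 2, 63.0 for E14.5 replicate 1 and 11.9 for E14.5 replicate 2. Just outside, at rank 2066, stood a region near Gpr63 with the same 8.38 in E12 replicate 1, one near Bmp7 with 63.0 in E14.5 replicate 1 and one near Rapgef5 with 11.8 in E14.5 replicate 2. Ties at the end of the list left 10 distal regions of E12 replicate 1 out, and keeping them lowered the E14.5-only distal count only from 267 to 264.

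The following 201-base windows, centred on the summit of the highest-ranked peak, are the elements that the distal results turn on. They are written on the plus strand of mm9, 5′ to 3′, in lower case, with capitals for a motif core on either strand. The core of Sox factors was searched as CCATTGT and also in its other form, which reads CCTTTGT here. The core of Gata factors was searched as AGATAAG. The core of Nfy, a factor of many promoters, was searched as CCAATCA and also in its other form, which reads CCAATGG here. Named by the nearest protein-coding start site, 4 of the 10 best-ranked E14.5-only distal regions are shown first, the first 4 that hold such a core.
Zfp950 (chr19:61216674-61216874): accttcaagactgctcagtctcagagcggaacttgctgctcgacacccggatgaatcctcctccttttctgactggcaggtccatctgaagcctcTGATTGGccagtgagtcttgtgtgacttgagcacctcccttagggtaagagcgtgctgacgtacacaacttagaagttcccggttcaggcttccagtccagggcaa
Srp14 (chr2:118336223-118336423): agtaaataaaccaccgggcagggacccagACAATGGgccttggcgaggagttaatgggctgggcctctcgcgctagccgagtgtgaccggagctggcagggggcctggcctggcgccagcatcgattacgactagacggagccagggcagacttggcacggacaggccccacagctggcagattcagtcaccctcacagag
Thrb (chr14:18660074-18660274): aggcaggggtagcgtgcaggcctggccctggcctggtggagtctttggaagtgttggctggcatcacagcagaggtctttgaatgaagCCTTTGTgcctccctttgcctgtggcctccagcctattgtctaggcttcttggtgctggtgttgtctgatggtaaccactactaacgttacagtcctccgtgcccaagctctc
Znfx1 (chr2:166897282-166897482): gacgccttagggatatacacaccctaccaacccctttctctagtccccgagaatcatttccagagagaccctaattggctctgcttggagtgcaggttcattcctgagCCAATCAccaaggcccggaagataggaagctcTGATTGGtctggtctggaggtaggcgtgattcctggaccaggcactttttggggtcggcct
Next come the first 3 of the best-ranked E12-only distal regions that hold such a core, followed by the E12-only region downstream of Isl1, a LIM-homeobox gene of the prosensory domain.
Zfpm1 (chr8:124818287-124818487): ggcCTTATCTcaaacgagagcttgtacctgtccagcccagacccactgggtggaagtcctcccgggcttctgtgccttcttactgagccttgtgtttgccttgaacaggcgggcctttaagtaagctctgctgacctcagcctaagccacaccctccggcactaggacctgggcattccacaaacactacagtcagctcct
Slc39a11 (chr11:113049706-113049906): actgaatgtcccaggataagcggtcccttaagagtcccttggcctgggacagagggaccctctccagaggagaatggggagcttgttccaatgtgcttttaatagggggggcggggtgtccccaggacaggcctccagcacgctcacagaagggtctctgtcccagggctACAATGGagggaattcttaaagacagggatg
Lrp8 (chr4:107476222-107476422): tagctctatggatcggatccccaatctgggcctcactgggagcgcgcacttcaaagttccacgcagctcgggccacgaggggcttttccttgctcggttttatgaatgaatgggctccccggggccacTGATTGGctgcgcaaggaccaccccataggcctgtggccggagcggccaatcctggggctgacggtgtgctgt
Isl1 (chr13:117084141-117084341): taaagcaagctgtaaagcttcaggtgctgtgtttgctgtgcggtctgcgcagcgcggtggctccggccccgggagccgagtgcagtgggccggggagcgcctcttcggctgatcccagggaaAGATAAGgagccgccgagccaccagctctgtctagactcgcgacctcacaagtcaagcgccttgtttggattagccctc
For contrast, the distal region upstream of Sox2 and the one upstream of Nfib were near the top of most or all of the 4 lists, and both hold a Sox core.
Sox2 (chr3:34431449-34431649): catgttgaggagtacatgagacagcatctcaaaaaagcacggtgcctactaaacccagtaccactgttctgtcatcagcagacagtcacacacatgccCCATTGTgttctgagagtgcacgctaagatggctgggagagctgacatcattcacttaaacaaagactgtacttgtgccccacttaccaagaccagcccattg
Nfib (chr4:82402022-82402222): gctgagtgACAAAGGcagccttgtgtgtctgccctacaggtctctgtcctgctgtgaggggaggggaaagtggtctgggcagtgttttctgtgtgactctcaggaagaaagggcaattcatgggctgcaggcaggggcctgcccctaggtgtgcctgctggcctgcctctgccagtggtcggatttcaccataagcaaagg
A core in these windows is a match of letters and does not show that a factor was bound.

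Of the 4491 distal regions in any of the 4 lists, 515 (11.5%) were in all 4 and 2400 (53.4%) were in 1 list only. There were 267 E14.5-only distal regions, 5.95% of the 4491 (Wilson 95% interval 5.29 to 6.68%, counting error only), and 141 E12-only distal regions, 3.14% (2.67 to 3.69%). Regions in exactly 1 list of each stage, which cannot be stage calls, came to 520, or 107 to 164 for each of the 4 such pairs of samples. The E14.5-only count was above all 4 of these mixed counts, and the E12-only count of 141 fell within their range. When lists were ranked by the fold enrichment of the peak in place of its −log10 p, the counts were 255 E14.5-only (4.74%) and 254 E12-only (4.72%) of 5381 distal regions, so the excess at E14.5 depended on the measure used for ranking.

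**Figure D1:**
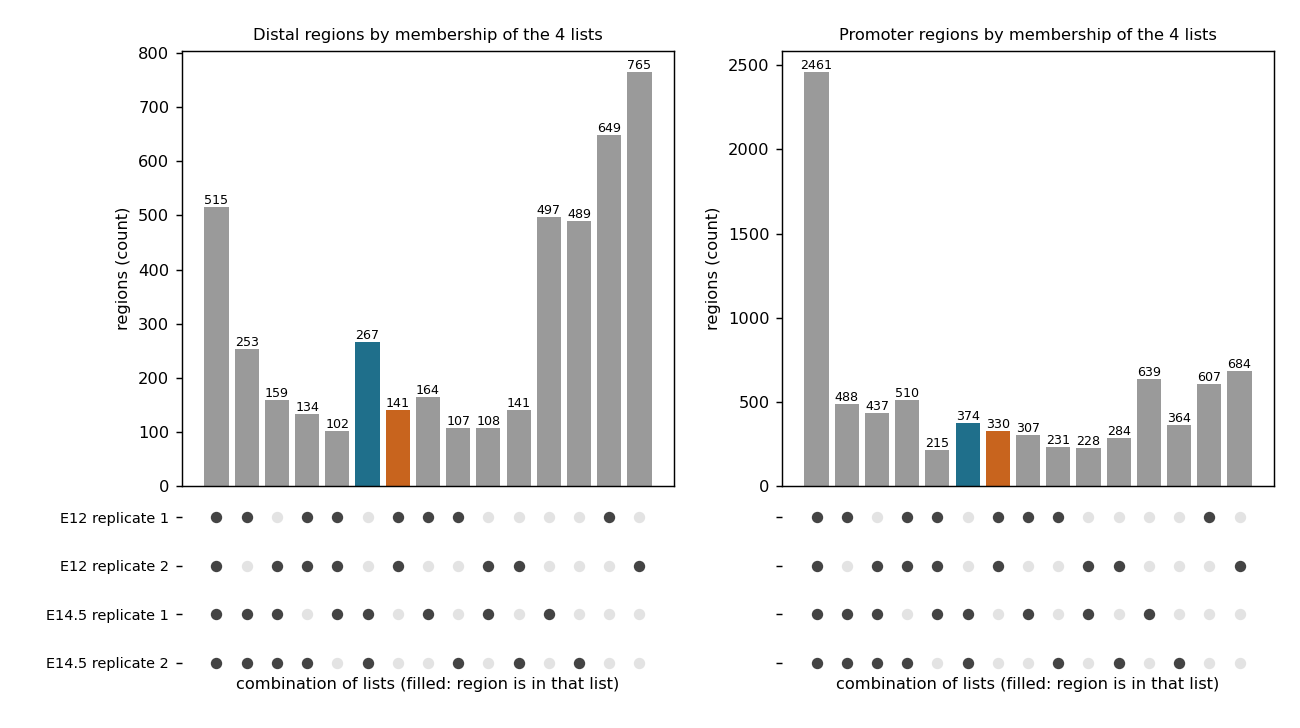
Number of distal (left) and promoter (right) regions, on linear axes from 0, for each combination of the 4 equal-length lists, with filled dots below marking the lists that hold the region. Blue bars are E14.5-only (267 and 374), orange bars E12-only (141 and 330), and the 4 bars to the right of them are regions in 1 list of each stage (107 to 164 distal and 228 to 307 promoter).

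Promoter regions were shared far more. Of the 8159 promoter regions in any list, 2461 (30.2%) were in all 4. The calls were 374 E14.5-only (4.58%) and 330 E12-only (4.04%), beside 228 to 307 for each mixed pair of samples. Both stage counts lay above the mixed counts, by less than the E14.5-only distal count did.

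Pairs of samples were compared by the share of their lists held in common. E14.5 replicates 1 and 2 shared 57.8% of their distal lists, the highest of the 6 pairs, whereas E12 replicates 1 and 2 shared 43.2%, less than 3 of the 4 pairs that cross the stages (42.8 to 50.1%). At promoters the E14.5 pair again shared most (73.0%), and the E12 pair (68.3%) lay within the range of the crossing pairs (64.9 to 71.7%). Pairs within a stage shared 3.58 percentage points more of the distal lists than pairs between stages (two-sided exact permutation test over 3 pairings, p = 0.333, the smallest these 4 samples allow) and 1.74 points more of the promoter lists (exact permutation p = 0.667). Over the 1202 distal regions with a peak in all 4 full lists, Spearman's rho of the −log10 p was 0.35 between the E12 replicates, 0.57 between the E14.5 replicates and 0.30 to 0.48 across stages, given as a description over regions. The E12 replicates were thus no more alike than samples of different stages, by either measure.

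**Figure D2:**
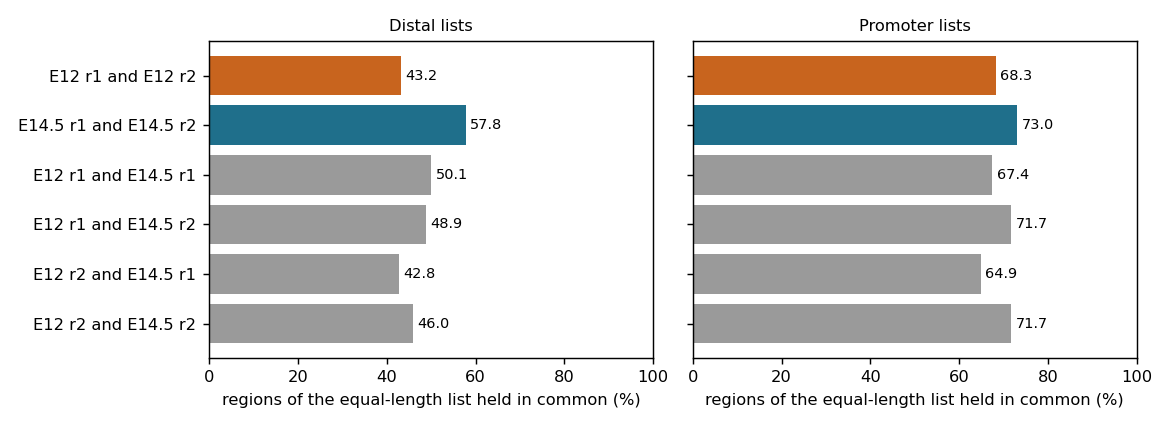
Share of the equal-length distal (left) and promoter (right) lists held in common by each pair of samples, in percent, from 0 to 100. The E14.5 pair (blue, 57.8 and 73.0%) stands highest in both classes, and the E12 pair (orange, 43.2 and 68.3%) lies among the 4 pairs that cross the stages (grey).

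The full lists behind the 2 kinds of call were unlike. Because the list of E12 replicate 2 was used whole, none of the 267 E14.5-only distal regions had a peak in E12 replicate 2, and 132 of them had a lower-ranked peak in E12 replicate 1, so that 135 (50.6%) had no E12 peak at all. All 141 E12-only distal regions had a lower-ranked peak in E14.5 replicate 1 and 121 also had one in E14.5 replicate 2. The E12-only regions sat at a median rank of 1214 and 1189 in the 2 E12 samples and of 4291 and 4105 in the E14.5 samples that had a peak. They are therefore regions that stood higher in the order at E12 and had a peak at both stages. At promoters the pattern was the same, with all 330 E12-only regions holding a peak in E14.5 replicate 1 and 323 also in E14.5 replicate 2. A peak in E14.5 replicate 1 is no trait of these calls, since 51048 of 51244 distal and 14644 of 14650 promoter regions had one. E14.5 replicate 2 had a peak in 9975 distal and 11087 promoter regions. Of the 374 E14.5-only promoter regions, 148 (39.6%) had no E12 peak. At the depth of the E12 libraries a missing peak does not show closed chromatin.

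The best-ranked E14.5-only distal region lay 21.7 kb upstream of Zfp950, a zinc finger gene, at rank 170 and 190 in E14.5 replicates 1 and 2 (−log10 p of 97.0 and 23.9) and at 3264 in E12 replicate 1 (6.84), with no peak in E12 replicate 2. A region in Thrb, the thyroid hormone receptor beta gene that the cochlea needs for hearing, ranked 74 and 548 at E14.5 (108 and 18.6) and 2967 in E12 replicate 1 (7.21), with no peak in replicate 2. Both were among the leading distal elements of either E14.5 litter and stood past the end of the E12 lists.

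A region in Otogl, 2.19 kb into the gene for an otogelin-like protein of the acellular membranes of the inner ear, ranked 314 and 157 at E14.5. It ranked 2071 in E12 replicate 1 with a −log10 p of 8.38, a tie with the last region of that list, so its call rests on how the tie was broken. Regions near Ripk4, a kinase of epithelial differentiation, and near D130040H23Rik had no E12 peak in either litter. They ranked 601 and 101, and 44 and 778, in E14.5 replicates 1 and 2. The other 5 of the 10 lay near 1110034B05Rik, Srp14, Znfx1, Rell1 and Ddi1, the last of them in an intron of Pdgfd, with a mean E14.5 rank from 221.5 to 424 and a peak in E12 replicate 1 between ranks 2391 and 4125.

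Few genes were nearest to more than 1 distal call of the same kind. The 267 E14.5-only distal regions had 260 nearest genes, and 7 genes had 2 regions each: Thrb, Smc2 (a condensin subunit), Acvr2a (an activin receptor), Slc5a3 (a myo-inositol transporter), Magi1 (a scaffold of tight junctions), Mmadhc (cobalamin metabolism) and Fat1 (an atypical cadherin). Nearest does not mean close, since the Acvr2a regions lay 496 and 373 kb upstream and the Smc2 regions 503 and 225 kb upstream, all between genes. The regions of Mmadhc and Fat1 had no E12 peak at all, while those of Magi1 lay 20 kb apart in its introns and had a peak in E12 replicate 1 at ranks 2118 and 2623. No gene had more than 1 E12-only distal region.

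The best-ranked E12-only distal region lay 23.4 kb upstream of Gm5218, at rank 259 and 211 in E12 replicates 1 and 2 (−log10 p of 15.7 and 11.6) and at 5144 and 3722 in E14.5 replicates 1 and 2 (47.6 and 9.44). An intronic region of Zfpm1, which encodes the Gata cofactor Fog1, ranked 272 and 317 at E12 (15.4 and 10.5) and 3192 and 2327 at E14.5 (55.7 and 11.4). The −log10 p of E14.5 replicate 1 was above that of either E12 sample at both regions, and only the order within each sample put them higher at E12.

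An intronic region of Wnt7b, a Wnt ligand, ranked 134 and 566 at E12 and 3086 and 2480 at E14.5. Another, in Lrp8, a receptor for reelin, ranked 569 and 246 at E12 and 4347 and 7509 at E14.5. The call in Cyth1, an exchange factor for Arf GTPases, was narrow, since its region ranked 139 and 819 at E12 and 2212 and 2089 at E14.5, shortly past the list length of 2065. The remaining 5 had Slc39a11 (377 kb away), Tnni1, Gse1, Lypd6 and Rnf165 as nearest genes and ranked between 176 and 793 at E12 and between 2789 and 6905 at E14.5.

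**Figure D3:**
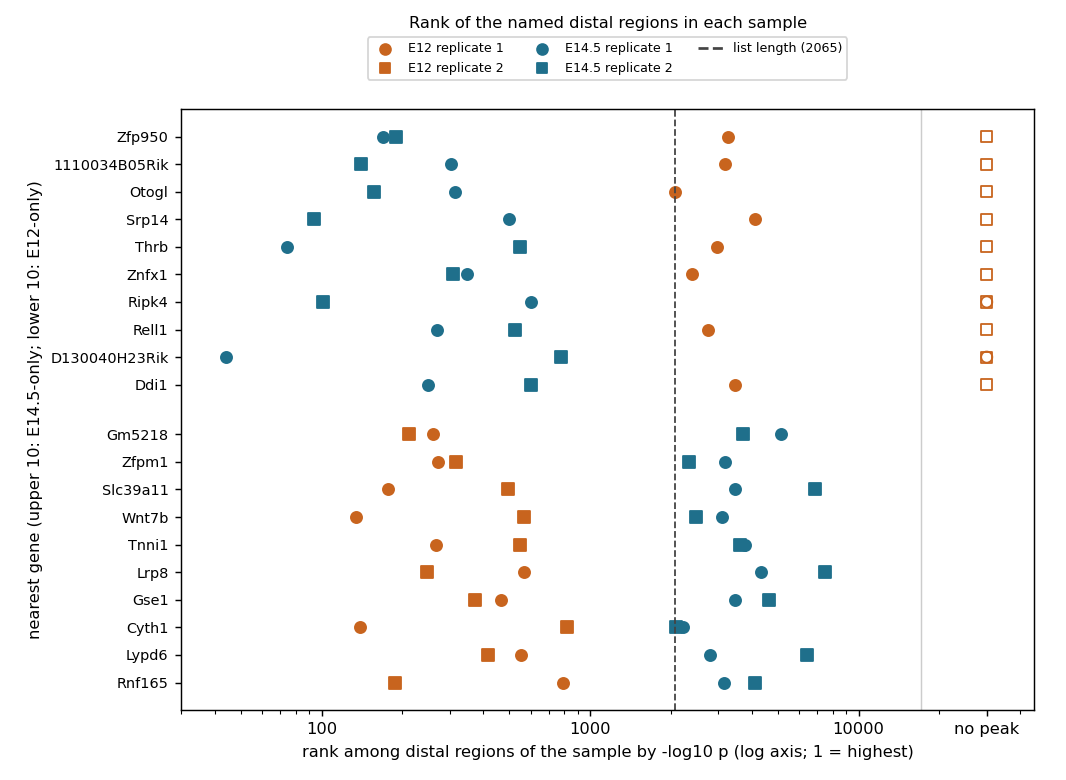
Rank of the 10 best-ranked E14.5-only (upper) and 10 E12-only (lower) distal regions in each of the 4 samples, on a log axis where 1 is the highest −log10 p, with open symbols for no peak. The dashed line is the list length of 2065; it separates the stages because the rule placed them so, and E12-only regions keep E14.5 peaks at ranks 2089 to 7509 whereas E12 replicate 2 has none at the E14.5-only regions.

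Among promoters, the best-ranked E12-only regions were those of Sema3f (a secreted axon guidance factor), Mga, Pgam1 (a glycolytic enzyme), Msh5, Rtkn and Ptpla. The Sema3f promoter ranked 531 and 836 in E12 replicates 1 and 2 and 5916 and 6068 in E14.5 replicates 1 and 2. Pgam1 ranked 633 and 1406 at E12 and 7411 and 8791 at E14.5, the lowest place at E14.5 among the 6 by mean rank. The best-ranked E14.5-only promoters were those of Asnsd1, 2410091C18Rik, Poli (a translesion DNA polymerase), Zim1, Rragc (a Rag GTPase of the mTORC1 pathway) and Ccdc53 (a subunit of the WASH complex). The Asnsd1 promoter ranked 421 and 1188 at E14.5 and 5851 in E12 replicate 1, and Ccdc53 ranked 1096 and 833 with no E12 peak in either litter. None of these 12 promoters belongs to a gene of the 24 lists that follow.

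Gene lists were read next. The 24 lists, of 338 genes of which 332 were found in the annotation, cover prosensory factors, signalling pathways, later cell types and cells that could contaminate the sort. Their genes were nearest to 259 distal regions in any list, of which 14 (5.41%) were E12-only and 15 (5.79%) were E14.5-only, beside 3.14% and 5.95% over all distal regions. At promoters there were 11 E12-only (7.86%) and 3 E14.5-only (2.14%) of 140, beside 4.04% and 4.58%.

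Of the 10 prosensory specification factors, Isl1 had an E12-only distal region, 15.7 kb downstream of its start, at rank 1546 and 1097 at E12 and 11002 and 4281 at E14.5. The Gata3 promoter, of a zinc finger factor that the prosensory domain requires, was E12-only at ranks 4629 and 4865, with 12068 and 7423 at E14.5, while a distal region 6.2 kb upstream of Gata3 was in all 4 lists. These 2 calls lay in the lower part of the E12 lists. No region of the 10 factors was E14.5-only, among 17 distal and 8 promoter regions in any list.

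Planar cell polarity genes, which align hair bundles and drive the elongation of the duct, had 4 E12-only regions and no E14.5-only one. The promoters of Prickle1 (ranks 1162 and 2329 at E12, 7521 and 6972 at E14.5), Prickle2 and Celsr1 were E12-only, 3 of 7 promoter regions in any list (42.9%, beside 4.04% of all promoters), as was a distal region 14.1 kb from Vangl1. The Prickle2 call was narrow in E14.5 replicate 2, where it ranked 5182 against a list length of 5149. Over so few regions these shares are counts and not a property of the list.

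In the Fgf pathway, distal regions near the receptor gene Fgfr1 (ranks 1749 and 241 at E12, 7065 and 7324 at E14.5) and the ligand gene Fgf8, and the promoter of the feedback inhibitor Spry1 (5127 and 4748, near the end of the E12 lists), were E12-only, of 15 distal and 8 promoter regions, with none E14.5-only. The Notch pathway had 1 call among 9 distal and 9 promoter regions, an E12-only region 16.8 kb upstream of the receptor gene Notch1. Growth control genes had 2 E12-only distal regions of 12, near Hmga2, a chromatin protein of growing progenitors, and in Ccnd3, a G1 cyclin, and none E14.5-only. Otic patterning factors had 2 of 20, near Tbx3 and Irx5. The E12-only distal shares were 13.3% for Fgf, 11.1% for Notch, 16.7% for growth control and 10% for patterning, beside 3.14% of all distal regions. Each rests on 1 or 2 regions.

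Calls of both directions stood in the Wnt and epithelial lists. Fzd9, a Wnt receptor gene, had an E12-only region 2.7 kb upstream (ranks 1505 and 930 at E12, 4011 and 7978 at E14.5) and an E14.5-only region 13.2 kb upstream (782 and 185 at E14.5, 3416 and no peak at E12). Beside Wnt7b at E12, a region near Ctnnb1, the beta-catenin gene, but in an intron of Ulk4 was E14.5-only. Grhl2, an epithelial transcription factor, had an E12-only region 73.5 kb upstream, an E12-only promoter, and an E14.5-only region 34.7 kb upstream. Fzd9 and Grhl2 thus had calls of both kinds.

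In the activin and Bmp list, 3 of 26 distal regions were E14.5-only (11.5%) and 0 were E12-only, beside 5.95% and 3.14% of all distal regions. The 3 were the pair 496 and 373 kb upstream of Acvr2a, their nearest gene, and one near Id4, an inhibitor of bHLH factors. Over so few regions these shares are counts and not a property of the list. The Id4 promoter was E12-only. In the list of Nfi, Ebf and Tead factors, the promoters of Nfia and Ebf1 were E14.5-only, as were a region in Nfib and one in Ebf1 (ranks 431 and 902 at E14.5, 2152 and no peak at E12), while 1 region near Nfix was E12-only. That made 2 of 5 promoter regions of the list and 2 of 18 distal regions E14.5-only, beside 4.58% and 5.95% of all such regions. The Nfia and Ebf1 promoters ranked 2379 and 3754, and 2842 and 3781, at E14.5, and 5970 and 6050 in E12 replicate 1. A Sox10 region 28.8 kb upstream, of a supporting cell and glial gene, was E14.5-only with no E12 peak.

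Axon guidance genes had E14.5-only regions in Ephb2 and Slit3 (2 of 31, 6.45%, beside 5.95% of all distal regions) and at the Epha5 promoter, and an E12-only Slit3 promoter. Synaptic adhesion genes had 1 call of each direction among 16 distal regions, both near Lphn2, an adhesion receptor gene also named Adgrl2. The E14.5-only region ranked 927 and 1519 with no E12 peak, and the E12-only one ranked 2102 in E14.5 replicate 2, just past the list. The hedgehog list had Boc, a co-receptor, with an E14.5-only intronic region and an E12-only promoter, and the otic matrix list had Otogl. The epithelial promoters of Esrp1 and Grhl2 were E12-only. Hair cell genes had no call among 4 distal and 4 promoter regions in any list.

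Markers of other cell types gave 2 calls. The 69 genes of 8 lists for glia, otic neurons, otic mesenchyme, nonsensory roof, melanocytes, endothelium, macrophages and erythroid cells were nearest to 10, 13, 8 and 10 distal regions of the lists of E12 replicates 1 and 2 and E14.5 replicates 1 and 2, and to 6, 7, 5 and 6 promoter regions. Among these, 1 distal region was E14.5-only, 126 kb upstream of Eomes, and 1 promoter was E12-only, that of the myelin gene Mbp. Macrophage and erythroid genes had 1 distal region each in the lists, both in E12 replicate 2.

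The study tabulates 56 elements reported to drive expression in the ear, and 34 of them overlapped a merged region, 16 a region in any of the lists. The numbers in the equal-length lists were 12 and 8 for E12 replicates 1 and 2 and 7 and 10 for E14.5 replicates 1 and 2, which do not separate by stage. One was a stage call, an intronic element of Nfix that was E12-only (ranks 1891 and 1858 at E12, 6423 and 6388 at E14.5). A Sox10 element 16 kb from Pick1 was in all 4 lists, at ranks 42, 224, 369 and 601, as were an Auts2 element (603, 366, 818 and 357) and the Sox10 elements near Polr2f (430, 892, 1742 and 708). These known elements were open at both stages. The Atoh1 3′ enhancer ranked 1988 in E12 replicate 2 and 13307 and 2749 in E14.5 replicates 1 and 2, with no peak in E12 replicate 1.

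A few loci were read region by region, and those of Sox2, Atoh1, Pax2, Fgfr3, Gli2, Wnt5a, Hes1, Flrt2, Wnt7a and Nlgn1 held no stage call. Of 38 regions at Sox2, 6, 3, 38 and 8 had a peak in E12 replicates 1 and 2 and E14.5 replicates 1 and 2. These counts follow the order of the full list lengths and are no check of the sort. The region 117 kb upstream printed above ranked 380 and 453 at E12 and 524 and 2870 at E14.5, so it was in 3 lists. A Sox2 promoter region 0.255 kb upstream of the start had a peak in each of the 4 samples, at promoter ranks 7705, 3778, 9158 and 9790. Another promoter region, 1.21 kb upstream, had no peak in either E12 sample and ranked 12453 and 3107 in E14.5 replicates 1 and 2. A region 61.7 kb downstream of the start of Wnt7a was in all 4 at ranks 541, 1659, 572 and 680. Fgfr3, a receptor of pillar cells and their precursors, had no E12 peak and 6 and 2 peaks at E14.5, all below the list length. Nlgn1 had 12 regions with a peak in E14.5 replicate 1 alone.

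Ranks of the regions measured in all 4 samples gave no stage difference past the threshold. Limma on normal scores of the rank called 0% of 1202 distal regions and 0% of 4528 promoter regions at an adjusted p under 0.05. None of the 267 distal and 374 promoter E14.5-only regions could enter this test, because none had a peak in E12 replicate 2. Of the E12-only regions, 121 distal and 323 promoter regions entered it. At an unadjusted p under 0.05 there were 39 distal regions ranked higher at E14.5 and 40 at E12, and 175 and 140 promoter regions. With no stage difference, a share of 0.05 of the regions tested would fall under that p. The counts of both directions together were somewhat above that share in both classes, and this excess was not tested. The 5 distal regions with the lowest p toward E14.5 lay near Zfp324, D830013O20Rik, App, Gm11273 and Gmnn (an inhibitor of replication licensing), and toward E12 near Nnat, Slc22a29, Lrp8, Rhpn2 and Gm5218. The Nnat region, 1.27 kb into an imprinted gene of developing neural tissue, ranked 1228 and 401 at E12 and 17726 and 9581 at E14.5, a difference of −2.83 in normal score (SE 0.68, limma adjusted p = 0.693).

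The promoters nearest to the threshold were those of Spc25 (a kinetochore subunit), D2Ertd750e, Mre11a (a double-strand break nuclease), Abcc10 and Gpn1, all ranked higher at E14.5. Spc25 ranked 28 and 637 at E14.5 and 4141 and 4844 at E12, a difference of 2.87 (SE 0.66, limma adjusted p = 0.250). Those toward E12 were Ppp2r2b, Pgam1, H2-Q2, Pura and Nudt3, with limma adjusted p from 0.329 to 0.462. These 20 regions were picked by their low p on the same ranks, so the separation of their stages was built into the choice. Only the region near Gmnn had overlapping ranks (2042 in E12 replicate 2 and 2141 in E14.5 replicate 1). The ranks printed are places in full lists of unlike length, whereas the test ranked only the regions compared. None of the 20 passed the threshold.

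The calls were also described by their place in the genome and their base composition. Of the E12-only distal regions, 48.9% had their centre in an intron and 48.2% between genes, against 35.2% and 62.2% of the E14.5-only regions and 39.3% and 55.9% of all 4491. More than 100 kb from any start site lay 18 of 141 E12-only (12.8%), 56 of 267 E14.5-only (21.0%) and 18.7% of all distal regions. These shares were not tested between the calls. The median GC content of the 201-base window was 56.7% for E12-only, 54.7% for E14.5-only and 55.2% for all distal regions, while the 4 sample lists had 56.2, 54.7, 55.7 and 56.2%, which overlap between stages.

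At promoters the median GC content was 69.7% for E12-only, 65.7% for E14.5-only and 67.2% for all regions in any list, and the median region was 1191, 936.5 and 1074 bp wide. The sample lists had a median GC content of 67.2, 67.2, 65.7 and 67.2%, so that E14.5 replicate 1 alone stood lower. Whether base composition of the libraries has a part in these promoter calls was not tested.

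Motif cores were searched on both strands of the 201-base windows of the distal regions, for 24 motifs. The Gata core was in 11 of 141 E12-only regions (7.80%, Wilson 95% interval 4.41 to 13.4%), 5 of 267 E14.5-only regions (1.87%, 0.802 to 4.31%) and 3.43% of all 4491. The difference was −5.93 percentage points (Newcombe 95% interval −11.7 to −1.75), and it was the only one of the 24 motifs whose 2 Wilson intervals did not overlap, by a narrow margin (4.41 against 4.31%). The Wilson intervals overlapped in windows of 50 bp (4.26 and 1.12%, a difference of −3.13 points) and of 200 bp (11.3 and 4.12%) to each side of the summit, and among the calls of lists of 1032 regions (8.43 and 2.16%). In these 3 settings the Newcombe 95% interval of the difference was −7.91 to −0.00565, −13.8 to −1.97 and −14.4 to −0.415 points. None of these intervals is corrected for the search of 24 motifs. In the whole lists the share was 3.24 and 4.07% at E12 and 3.20 and 2.23% at E14.5, so the stages did not overlap but their nearest values, 3.24 and 3.20%, were close together (two-sided exact permutation p = 0.333, the smallest possible). The 11 E12-only regions with the core were near Zfpm1, Isl1, Arfgef1, Ccdc88c, Spin1, Ppap2a, Hesx1, Ktn1, Gm11232, A930011G23Rik and Mical3. The windows of Zfpm1 and Isl1 are printed above.

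The Sox core was in 25 E12-only regions (17.7%, 12.3 to 24.9%), 64 E14.5-only regions (24.0%, 19.2 to 29.4%) and 18.4% of all, a difference of 6.24 points (−2.32 to 13.9) whose interval includes 0. The sample lists had 18.9 and 16.1% at E12 and 22.8 and 18.7% at E14.5, which overlap. The Nfy core was in 5.67% of E12-only and 10.9% of E14.5-only regions, 7.99% of all and 15.7% of the 515 in all 4 lists. By sample it was in 8.91, 7.75, 11.5 and 9.01% of the lists, higher in both E14.5 samples (exact permutation p = 0.333). Of the 24 motifs, the sample shares of 4 did not overlap between stages, Nfy and Ets higher at E14.5 and Gata and Ebf higher at E12. With 2 samples a stage, a share of 0.333 of motifs would separate so with no stage difference, and 4 of 24 is below that.

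Intervals overlapped for all other motifs. The Tead core (CATTCCA) was in 4.96% of E12-only and 3.75% of E14.5-only regions and 4.41% of all. The Atoh1-type E-box (CAGCTG) was in 17.0, 20.6 and 16.8%, and the AP-1 core (TGANTCA) in 6.38, 6.74 and 5.77%. Some rarer motifs differed more in proportion, but on few regions. Of 141 E12-only and 267 E14.5-only regions, Runx was in 0 and 7 (0 and 2.62%) and Grhl in 0 and 5 (0 and 1.87%). Lef/Tcf was in 1 and 6 (0.709 and 2.25%) and Ctcf in 2 and 9 (1.42 and 3.37%). Over all 4491 regions these motifs were in 2.56, 1.40, 2.36 and 2.00%. The E14.5-only shares of Runx and Lef/Tcf were thus near those of all regions. The sample lists had Runx at 3.05 and 2.71% at E12 and 2.37 and 2.86% at E14.5, which overlap. Fox went the other way (2.84 and 2.25% of E12-only and E14.5-only regions).

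**Figure D4:**
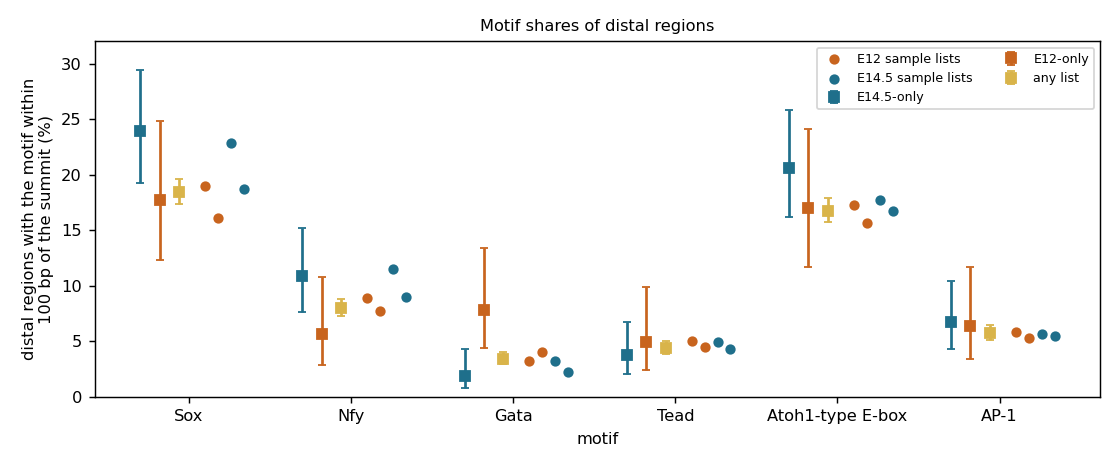
Share of distal regions, in percent, with each of 6 motifs within 100 bp of the summit, on a linear axis from 0. Squares are the E14.5-only (blue), E12-only (orange) and all listed regions (yellow) with Wilson 95% intervals, and dots are the 4 whole sample lists; the Gata squares (1.87 and 7.80%) have intervals just apart in these windows (4.41 against 4.31%) but not in narrower or wider ones, while the Gata dots lie between 2.23 and 4.07%.

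The 5 samples that had no part in the calls were cut to the same list lengths over the same regions. Of the 267 E14.5-only distal regions, 173 (64.8%, Wilson 95% interval 58.9 to 70.3%) were in the list of E16 Sox2-EGFPhigh+ replicate 1 and 172 (64.4%) in that of replicate 2. Only 25 of the 141 E12-only distal regions (17.7%, 12.3 to 24.9%) were in each of them. Regions in 1 list of each of the earlier stages were in between, at 42.1 and 39.4%, as were all 4491 at 37.1 and 36.3%. Thus most E14.5-only regions were in the E16 lists and most E12-only regions were not. The rule had already put E12-only regions outside both E14.5 lists and E14.5-only regions inside them. Any list ordered like those of E14.5 would split the calls in this way, and a course over time was not tested. Some E16 peak was present at 95.7 and 100% of the E12-only regions, near the 91.5 and 97.1% of all 4491.

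In the 3 Sox2-EGFP- samples the E14.5-only distal regions were in the lists at 31.8% (E14.5) and at 31.1 and 30.3% (E16), and the E12-only regions at 17.7, 18.4 and 16.3%, with 22.8 to 24.1% of all 4491. The distance between the calls was smaller than in the E16 Sox2-EGFPhigh+ lists, in each of these samples. Of the E14.5-only promoters, 65.5 and 74.9% were in the lists of the E16 Sox2-EGFPhigh+ replicates and 60.7 to 67.1% in those of the Sox2-EGFP- samples. Of the E12-only promoters, 28.5 and 20.0% (94 and 66 of 330) were in the former and 29.7 to 33.3% in the latter. Over all 8159 promoter regions the shares were 60.8 and 60.7%, and 58.8 to 59.4%. The promoter calls were thus also far apart in cells without Sox2-EGFP. The difference between sorted populations was not tested, and the E16 samples were grouped by their titles, since the separate cell type tags of 3 of the 4 name the other population.

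The order of the stages was the same for regions of a single list, although most of these regions were not in the E16 lists. Distal regions in the list of E14.5 replicate 1 alone were in the E16 lists at 34.0 and 38.4% and those of E14.5 replicate 2 alone at 23.5 and 22.3%, against 12.2 and 7.70% for E12 replicate 1 alone and 8.50 and 7.06% for E12 replicate 2 alone. Both E14.5 samples stood above both E12 samples, and E14.5 replicate 2 alone stood below the 37.1 and 36.3% of all 4491. Like the E14.5 libraries, the E16 libraries have more reads than the E12 libraries in the sample table of the study, and the part of depth in this order was not tested.

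**Figure D5:**
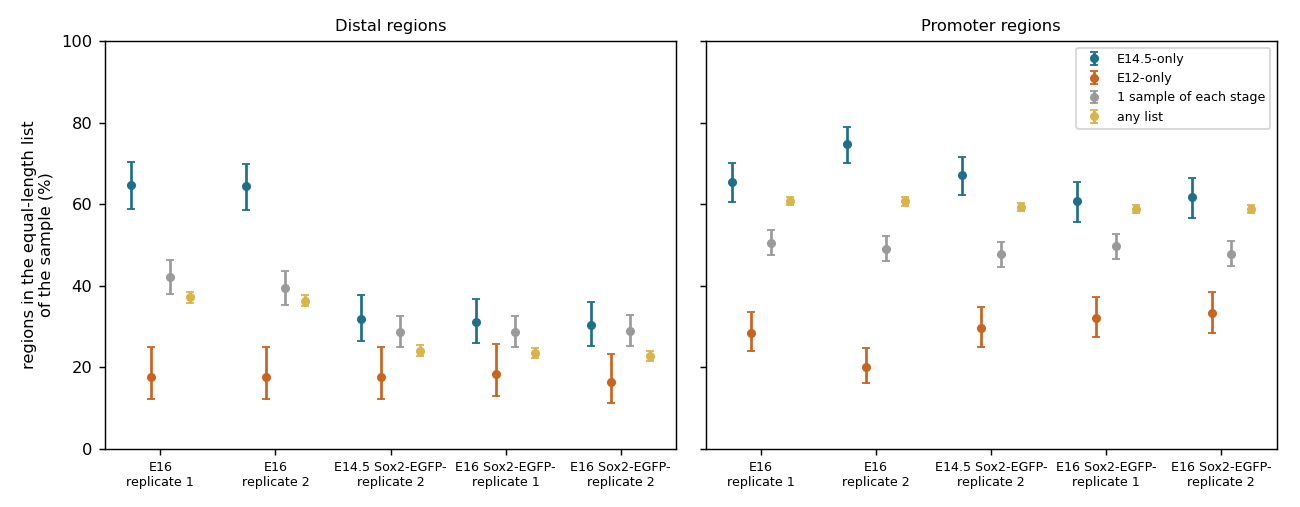
Share of distal (left) and promoter (right) regions, in percent from 0 to 100, that are in the equal-length list of each of the 5 samples that did not choose the calls, with Wilson 95% intervals for counting error. E14.5-only distal regions (blue) reach 64.8 and 64.4% in the E16 Sox2-EGFPhigh+ lists (named E16 on the axis) and 30.3 to 31.8% in the Sox2-EGFP- lists, and E12-only regions (orange) stay between 16.3 and 18.4% in all 5.

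At the other end, the distal regions ranked highest in all 4 samples were the same few. No list of artefact regions was applied here, so repeated or otherwise artefactual sequence among these top ranks was not tested beyond the mitochondrial genome. Regions near Filip1l, Axin2, Pxmp3 and Cdk8 took ranks 1 to 5 in every sample, with a −log10 p from 75.4 and 98.5 at E12 to 184 and 131 at E14.5 for the Filip1l region. None of the 6 highest shares a stretch of 36 bases with the mitochondrial genome of mm9. Other repeated sequence, ribosomal RNA genes included, was not searched, so these 6 are not read as elements of the genes they are named by. Below them, regions shared by the stages included 2 near Hey1, a Notch effector (ranks 245, 92, 202 and 217 for the one 100 kb upstream), one 189 kb from Lmx1a, an otic patterning factor (13, 559, 434 and 27), one 70.4 kb upstream of Sox9 (260, 190, 1193 and 165), and one 177 kb from Fgf9, a ligand (68, 258, 284 and 413). The Nfib region printed above ranked 86, 102, 405 and 86. These regions were in the lists of both stages.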

How the data were processed

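ATAC-seq was done by the authors on sorted cochlear duct cells, 2 litters a stage for the 4 samples compared. Per the study's methods, the authors trimmed adapters with Trim Galore, aligned reads to mm9 with Bowtie2, marked duplicates with Picard, removed duplicate and mitochondrial reads with SAMtools and called peaks with MACS2 for each sample. The deposited narrowPeak files give each peak a fold enrichment (a ratio over the local background), a −log10 p, a −log10 q and a score, which the authors' peak caller took from the q value. They hold no reads and no counts, so depth is unknown from the files and intervals given for shares of regions cover counting error only. Tools credited to the submitters' processing notes also include bedtools.

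Peaks off the main chromosomes, 9, 10, 4 and 5 mitochondrial peaks among them, were left out. Regions, classes, ranks and calls were made as given in the report. Genes were the 22359 protein-coding genes of the mm9 annotation, a promoter needed an overlap of 1 bp, and a distal region was named by the nearest start site. No list of artefact regions was applied. Sharing and motif shares were compared by exact permutation tests over samples. Ranks of the regions with a peak in all 4 lists were turned into normal scores within each sample and compared with limma 3.58.1 in R 4.3.3, with Benjamini-Hochberg adjustment and a threshold of 0.05. Scripts used Python 3.11.15, pandas 2.3.3, SciPy 1.17.1 and pysam 0.24.0, and the tests were checked on simulated data. Named were the 10 distal and 6 promoter regions of each call with the best mean rank in their own stage, genes with several calls, all calls near genes of the lists, the best regions of all 4 lists and the 5 lowest limma p a direction. Regions that were shared by all 4 lists near list genes were picked for the last paragraph after their values were seen. The members and the lists were chosen with earlier results of these data known. The results of 1 locus and 1 motif are not reported here.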

Additional observations from a re-analysis of the deposited data

How the results depend on the processing

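The number of calls moved with the length and strictness of the lists. Distal E12-only and E14.5-only counts were 83 and 139 with lists of 1032 regions, 46 and 60 with lists of 516, and 62 and 79 with peaks of −log10 q of at least 5. Promoter counts were 188 and 233, 104 and 142 (lists of 2574 and 1287), and 193 and 244. With no peak allowed in either full list of the other stage, 0 distal and 0 promoter regions were E12-only and 135 and 148 were E14.5-only. The counts of 0 were all but fixed beforehand, because E14.5 replicate 1 had a peak in 51048 of 51244 distal and 14644 of 14650 promoter regions. Ranking by fold enrichment gave 254 E12-only distal regions. Leaving out 1 sample gave 243 to 906 E12-only and 426 to 764 E14.5-only distal regions and 545 to 1014 and 738 to 1013 promoter regions, highest for a stage when it was left with 1 sample, except that E14.5-only promoters were lowest, at 738, without E14.5 replicate 1 and that their count without E12 replicate 1 was 862. The rank test called 0 to 9 distal regions (9 without E12 replicate 1, 3 without E12 replicate 2, 5 without E14.5 replicate 2) and 0 to 35 promoter regions (35, 22 and 3), where the lone sample is assumed to vary like the others. A replicate block also gave 0 distal and 0 promoter calls. Samples of the same number hardly deviated together (correlations of 0.0839 and 0.0518 over regions), so they share only a number. Keeping ties at the end of a list, an alternative chosen after seeing the data, gave 141 and 264 distal and 330 and 373 promoter calls. The excess of sharing within a stage stayed positive under every alternative, from 2.59 to 5.01 points for distal and 0.991 to 3.35 for promoter lists, but the exact permutation p over the 3 pairings was never below 0.333, was 1 for both classes with the shortest lists (516 and 1287 regions) and was 0.667 for distal lists of −log10 q of at least 5. The Gata difference between the calls was −3.13 to −7.23 points and the Sox difference 5.20 to 6.24 points. The number of peaks called in E12 replicate 2 set the length of every list.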
